A study of Mus musculus with 27 samples.

Results

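Liver and omental adipose tissue were taken from the same 4 *Mlx*KO mice at 5 months of age, and the 4 liver libraries were compared with the 4 adipose libraries within each mouse. The mice are called A to D here, and their libraries carry the labels X5L4299 and X5F4299 (mouse A), X5L5001 and X5F5001 (B), X5L5238 and X5F5238 (C), and X5L5239 and X5F5239 (D). The table holds 36333 genes, of which 13673 reached a value of 1 in 4 or more of these 8 libraries and were tested. The 8 libraries belong to a series of 27 that also holds skeletal muscle at this age and all 3 tissues at 20 months. Every mouse carried floxed *Mlx* alleles, with LoxP sites around internal exons, and the Gt(ROSA)26Sortm1(cre/ERT2)Tyj allele of a B6.129 strain, in which the broadly active *Rosa26* locus drives a tamoxifen-dependent Cre, and each received daily i.p. tamoxifen around weaning to activate it. All 8 samples are therefore Mlx-deleted, no wild-type sample enters, and a difference between the tissues is a difference between Mlx-deleted tissues that cannot be ascribed to the loss of Mlx. The labels name a lipid tissue version of the RNeasy kit for adipose RNA, whereas the study's methods name a single RNeasy kit for all tissues. If the labels hold, kit and tissue cannot be told apart.

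Mlx is the dimerization partner of the glucose-sensing transcription factors ChREBP (encoded by *Mlxipl*) and MondoA (encoded by *Mlxip*), and the dimers bind carbohydrate response elements in genes of glycolysis and lipid synthesis. The hepatocyte, the main cell of the liver, secretes most plasma proteins and carries out the urea cycle, bile acid synthesis, glucose release and ketone body production. The white adipocyte stores triglyceride in a single large droplet, releases it as fatty acids under hormonal control and secretes adipokines such as adiponectin and leptin.

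Levels are the deposited normalised values, which are CPM (reads scaled to the total of the library) divided by a factor for each library, so they compare 1 gene between libraries. Differences are liver minus adipose tissue in log2(value + 1), with the standard error (SE) and the Benjamini-Hochberg adjusted p of the paired limma fit over all 13673 genes. A gene was called at an adjusted p under 0.05 and a difference of at least 1 in size. The added 1 understates the differences of genes with low values.

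The promoters of 5 genes picked by hand, which stood far apart between the tissues, show which letters lie at their starts. Each runs from 250 bases before to 50 bases after the RefSeq start (GRCm38.p6), 5′ to 3′ along the gene. *Alb* (albumin, chr5:90460620-90460919, plus strand), *Fgb* (fibrinogen beta chain, chr3:83049814-83050113, minus strand) and *Fabp1* (liver fatty acid binding protein, chr6:71199629-71199928, plus strand) were higher in liver, and *Plin1* (perilipin 1, which coats the fat droplet, chr7:79732727-79733026, minus strand) and *Lep* (leptin, chr6:29059971-29060270, plus strand) were higher in adipose tissue. Capitals mark matches on either strand to GTTAAT, letters found in promoters of many hepatocyte genes, and to TTGCNNAA, the core bound by C/EBP factors, which act in both hepatocytes and adipocytes.
Alb: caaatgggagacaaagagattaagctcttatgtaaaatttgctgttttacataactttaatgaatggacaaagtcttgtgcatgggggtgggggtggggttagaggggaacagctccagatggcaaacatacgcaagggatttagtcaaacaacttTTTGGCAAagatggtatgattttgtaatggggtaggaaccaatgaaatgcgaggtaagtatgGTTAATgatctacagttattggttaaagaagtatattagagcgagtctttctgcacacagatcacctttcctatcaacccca
Fgb: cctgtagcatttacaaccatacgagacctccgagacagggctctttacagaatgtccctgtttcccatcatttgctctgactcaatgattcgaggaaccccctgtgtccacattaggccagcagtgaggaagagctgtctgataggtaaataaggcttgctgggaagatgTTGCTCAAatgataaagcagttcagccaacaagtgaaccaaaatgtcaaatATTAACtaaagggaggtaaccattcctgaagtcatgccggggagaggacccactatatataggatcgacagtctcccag
Fabp1: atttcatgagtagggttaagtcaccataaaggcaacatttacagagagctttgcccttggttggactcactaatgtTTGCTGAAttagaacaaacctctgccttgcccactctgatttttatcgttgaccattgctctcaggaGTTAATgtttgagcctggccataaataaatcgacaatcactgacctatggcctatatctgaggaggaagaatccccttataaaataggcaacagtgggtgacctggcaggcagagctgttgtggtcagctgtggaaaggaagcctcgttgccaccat
Plin1: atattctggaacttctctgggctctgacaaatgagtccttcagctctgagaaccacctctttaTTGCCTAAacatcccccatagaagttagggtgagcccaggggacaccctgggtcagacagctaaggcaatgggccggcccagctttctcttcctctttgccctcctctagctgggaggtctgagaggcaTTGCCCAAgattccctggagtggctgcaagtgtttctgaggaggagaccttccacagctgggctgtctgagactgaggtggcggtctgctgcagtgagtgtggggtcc
Lep: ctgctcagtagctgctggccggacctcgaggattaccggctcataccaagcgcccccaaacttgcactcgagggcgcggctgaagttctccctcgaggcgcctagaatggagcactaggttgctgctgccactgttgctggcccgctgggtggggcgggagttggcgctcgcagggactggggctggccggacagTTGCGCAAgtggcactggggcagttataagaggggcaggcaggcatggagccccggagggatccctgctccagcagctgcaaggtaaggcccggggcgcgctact

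The letters GTTAAT began 32 bases before the start of *Alb*, 29 before that of *Fgb* and 107 before that of *Fabp1*, and were in neither adipose promoter. The C/EBP letters were in all 5, at 94 bases before the start in *Alb*, 80 in *Fgb*, 174 in *Fabp1*, 187 and 58 in *Plin1*, and 55 in *Lep*. These 5 picked genes do not stand for the plasma protein and adipocyte lists. A smaller share of those promoters held the C/EBP letters, as given below. GTTAAT was in 7.1% of all 32851 promoters of the table. Shares of all promoters count promoters, whereas shares of gene sets count genes with a match in any of their promoters. GTTAAT was in 8.84% of the 2546 genes higher in liver that have a promoter there, in 5.31% of the 2675 higher in adipose tissue and in 5.78% of the 10867 tested. TTGCNNAA was in 10.8% of all promoters, and in 12.7%, 11.6% and 10.8% of these 3 gene sets. CACGTG, the E-box letters that Mlx and Myc family dimers recognize, was in 7.15% of all promoters and in 11.4%, 9.57% and 11.5% of the same sets. Of the 28 plasma protein genes, 22 have a promoter entry, and 9 of these held GTTAAT (*Alb*, *C8a*, *F2*, *Fga*, *Fgb*, *Gc*, *Mug1*, *Serpina1a* and *Vtn*), 12 held TTGCNNAA and 0 held CACGTG. Of the 12 adipocyte marker genes, 10 have an entry, and 0 held GTTAAT, 4 held TTGCNNAA (*Cidec*, *Lep*, *Plin1* and *Pparg*) and 1 held CACGTG (*Lipe*). A match is a description of the letters in these windows, and binding was not measured.

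The 8 libraries held 15141861 to 21276867 reads on genes. A count of 3 reads, the floor used below, corresponds to a value of 0.191 to 0.24 in liver and 0.0873 to 0.111 in adipose tissue. At least 1 read fell on 16570 to 16962 genes in liver and on 19849 to 21748 in adipose tissue. The labelled tissues held their defining markers, since 12 of 12 hepatocyte markers were called higher in liver and 12 of 12 adipocyte markers higher in adipose tissue. Some adipose libraries held further genes at uneven levels, described with the cell type markers below, and the values of these libraries are given beside the results they touch.

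Liver put far more of its reads into a few genes than adipose tissue did. Its 20 most abundant genes took 23%, 25.4%, 23.6% and 24.7% of the reads in the 4 mice (24.2% ± 1.06, SD, n = 4), and the same genes took 1.61% of adipose reads. *Alb* alone took 7.09% of liver reads on average. It was followed by *Apoe* (1.74%), the lipid-induced cytochrome *Cyp4a14* (1.52%), *Gm21320* of the major urinary protein cluster (1.26%) and *Mat1a*, which makes S-adenosylmethionine (1.26%). The 20 most abundant genes of adipose tissue took 13.2%, 9.09%, 13.3% and 14.2% of its reads (12.5% ± 2.29), with mouse B lowest, and 4.82% of liver reads. *Scd1*, the desaturase that makes oleate and palmitoleate, took 3.24% of adipose reads, *Fabp4* 0.952%, the actin-binding *Gsn* 0.866%, *Car3* 0.748% and *Plin4* 0.705%. *Apoe*, *Trf* and *Cyp2e1* were among the 20 in both tissues.

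Of the 13673 genes tested, 3189 (23.3%) were called higher in liver and 3530 (25.8%) higher in adipose tissue, and 10529 (77.0%) had an adjusted p under 0.05 at any size. The tissues did not overlap in 9748 genes (71.3%). A gene list is read against these shares. Far differences were more frequent on the liver side, where 137 called genes differed by at least 8 on the log2 scale against 7 on the adipose side, while 799 and 731 called genes differed by at least 8-fold. The added 1 compresses the differences of low genes, and the median of the adipocyte markers was -6.75 here and -10.43 in edgeR's fit of the recovered reads. The median difference over all tested genes was 0.04. That balance depends on the authors' factors, which lie between 0.717 and 0.758 in liver and between 1.55 and 1.79 in adipose tissue. With every library rescaled to the same sum, the median moved to -1.03, 1417 genes (10.4%) were called higher in liver and 6981 (51.1%) higher in adipose tissue. Of the 3189 liver calls, 1417 remained under that scaling, 2878 kept their sign and 0 were called in the other direction, while all 3530 adipose calls remained. With sums made equal apart from the 20 most abundant genes of each tissue, the shares were 11.7% and 44.6%. Lists whose direction turns with it are named where they appear.

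**Figure D1:**
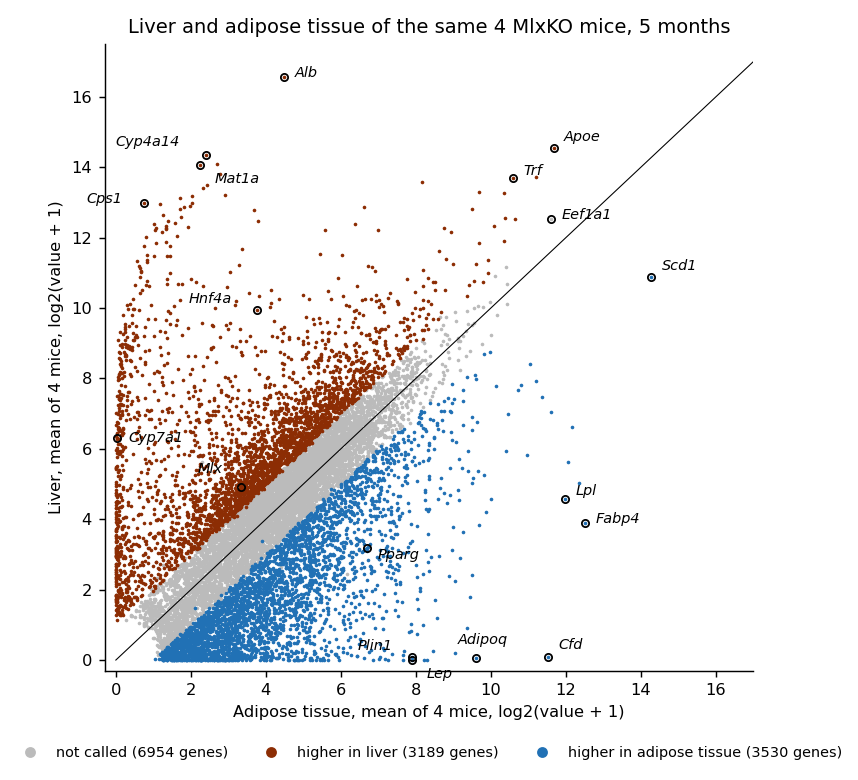
Mean normalised value of each of the 13673 tested genes in liver (vertical axis) and adipose tissue (horizontal axis) of 4 mice, both as log2(value + 1), with the line of equal values. Of the called genes, 3189 lie on the liver side and 3530 on the adipose side, with *Alb* and *Cyp4a14* far up on the left and *Cfd*, *Adipoq*, *Lep* and *Plin1* at the foot of the plot.

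Plasma proteins lay far on the liver side. All 28 listed genes were called higher in liver, against 23.3% of all genes tested, with a median difference of 10.7 against 0.04. Their summed value was 212900 to 271000 in liver and 2820 to 4926 in adipose tissue. *Alb*, the main osmotic protein of plasma, stood at 103200, 125300, 73620 and 85610 in the livers of mice A, B, C and D and at 9.06, 1.995, 41.5 and 33.4 in their adipose tissue. The difference was 12.68 (SE 0.74, adjusted p = 1.58e-05). *Apoa1*, the main protein of high-density lipoprotein, stood at 11670, 10560, 11480 and 12210 in liver and at 1.98, 1.29, 7.13 and 7.04 in adipose tissue, a difference of 11.28 (SE 0.32). *Apob*, the scaffold of low-density lipoprotein, differed by 11.96, *Fgb* by 11.29, and *Serpina1a*, an antitrypsin gene with near-identical copies among which reads may be split, by 11.05. The livers of mice A and B held more *Alb* than those of C and D, while their adipose tissue held less. In adipose tissue, the 28 plasma protein genes had a median of 0.0119% and 0.0052% of the liver value of the same mouse in mice A and B, and of 0.0565% and 0.0502% in C and D. Whether this trace is adipose expression or liver RNA carried over was not tested. With mice A and B alone, 28 of 28 were still called. *Trf*, *C3* and *Hp* were well above this trace in adipose tissue. *Trf*, the iron carrier transferrin, had adipose values of 1513, 1279, 1861 and 1492 (difference 3.11), *C3* of 1353, 1234, 1752 and 834 (2.97, and 0.73 without a call with quantile normalization), and the haemoglobin scavenger *Hp* of 390, 225, 1048 and 1222 (3.63).

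The genes that differed most towards liver followed the same functions. After *Alb* came *Cyp4a14* (12.43), which hydroxylates fatty acids, with 18840 to 25020 in liver and 0.111 to 8.79 in adipose tissue. *Cps1*, which commits ammonia to the urea cycle, stood at 7924, 12910, 5997 and 5643 against 0.255, 0.0739, 1.66 and 0.786, a difference of 12.24 (SE 0.38, adjusted p = 1.26e-06). *Mat1a* differed by 12.18, *Apob* by 11.96, *Gm21320* by 11.86, *Cyp4a10* by 11.70, the betaine-using methyltransferase *Bhmt* by 11.58, the protease inhibitor *Mug1* by 11.54, *Serpina1c* by 11.53, the alpha-macroglobulin *Pzp* by 11.41 and the lipoprotein gene *Apoa2* by 11.34. Liver was higher in 4 of 4 mice for each. *Gm21320*, the *Mup* genes, both *Cyp4a* genes and the *Serpina1* genes have near-identical copies, so the value of a single copy is uncertain. Summed over 22 *Mup* locus genes, liver values were 24110, 35660, 88100 and 71790, lower in mice A and B than in the other 2 livers.

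Transcription factors that maintain hepatocyte identity were higher in liver in 15 of 16 cases (median 4.89), and 1 was not called. *Nr1i3* (CAR, a sensor of foreign compounds) stood at 96.5, 106, 158 and 169 in liver and at 0 to 0.262 in adipose tissue (6.85, SE 0.15, adjusted p = 3.17e-07). *Nr1h4* (FXR, the bile acid receptor) stood at 134, 99.1, 150 and 154 against 0.989 to 1.49 (5.84, SE 0.15). *Hnf4a*, a central hepatocyte factor, stood at 967, 1434, 743 and 760 in liver and at 8.61, 19.4, 0.332 and 22.2 in adipose tissue (6.74, SE 0.60, adjusted p = 8.93e-05). In adipose tissue *Hnf4a* was lowest in mouse C, as were the epithelial genes described below, and their part in these values was not tested. Without mouse C, 15 of 16 were again called.

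The metabolic work of the hepatocyte was set apart in the same direction. All 16 bile acid genes were called higher in liver (median 7.68), and so were 20 of 20 amino acid catabolism genes (8.34), 19 of 20 cytochrome P450 and conjugation genes (8.64), 9 of 10 urea cycle genes (7.34) and 12 of 14 genes of glucose output and glycogen (3.46). *Cyp8b1*, which sets the cholic acid share of bile, stood at 1327, 1397, 1703 and 1403 in liver and at 0.259 to 0.902 in adipose tissue (9.84, SE 0.12, adjusted p = 7.71e-08). The bile salt carriers *Slc10a1* (8.35) and *Abcb11* (8.43) differed nearly as far, with liver values of 344 to 380 and 349 to 401. *Cyp7a1*, the rate-limiting enzyme of bile acid synthesis, varied more among the livers than these did, at 186, 8.51, 64.3 and 50.6, with mouse B lowest, against 3 reads in all 4 adipose libraries, each of them in mouse C (5.60, SE 0.62, adjusted p = 0.00024). The ratio was 3112, with a 95% counting interval of 1064 to 15100. *Slc27a5*, which activates bile acids and fatty acids, had the smallest p of all genes (9.76, SE 0.10, adjusted p = 7.71e-08, an adjusted value it shared with 32 others), at 1056, 1066, 1139 and 1204 against 0.148 to 0.437.

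Among the urea cycle genes, *Otc* differed by 7.86, *Ass1* by 8.70 and *Arg1* by 10.11. *Glul*, which fixes ammonia as glutamine, was not called (0.24), with 632, 879, 1257 and 1383 in liver and 721, 1226, 557 and 1009 in adipose tissue, so the tissues overlapped. In amino acid catabolism, the tyrosine enzymes *Tat* and *Hpd* differed by 10.67 and 10.58, and the serine dehydratase *Sds* by 8.14. Liver *Tat* was highest in mouse B, at 6722 against 2298 to 3133, and liver *Sds* was about even in mice A and B (460 and 516) and lower in C and D (189 and 186). Both genes respond to fasting and glucocorticoids in general. The same liver of mouse B also held the highest *Igfbp1* (1340 against 265 to 500) and *Lpin1* (229 against 10.8 to 17.2), and the lowest *Scd1* (586 against 1909 to 2670). Liver *Pdk4* was instead highest in mouse D (334 against 160 to 286), and liver *G6pc* was about even (547 to 612). A cause of these differences among the livers was not tested.

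Glucose output genes held an exception to the pattern of near absence in adipose tissue. *G6pc*, which frees glucose from glucose 6-phosphate, stood at 547, 610, 580 and 612 against 0.893, 1.81, 0.564 and 0.757 (8.23, SE 0.15). *Fbp1* differed by 6.99, and its adipose values of 4.21, 9.199, 0.431 and 15.1 followed the order of the epithelial genes. *Pck1* stood at 6055, 7484, 5623 and 5102 in liver and at 1592, 681, 1506 and 1493 in adipose tissue, where it serves glycerol synthesis for triglyceride (2.26, SE 0.36, adjusted p = 0.00124), and its difference was -0.04 with quantile normalization. *Foxo1* (-0.05) and *Ppargc1a* (0.47) were not called. Among the cytochromes, *Cyp3a11* differed by 10.97 and *Cyp2f2* by 4.80. *Cyp2e1*, which oxidizes ethanol and ketones, was abundant in both tissues, at 7616, 15240, 15770 and 15120 in liver and 3220, 2318, 2054 and 1832 in adipose tissue (2.49, SE 0.43, adjusted p = 0.00188). The call of *Cyp2e1* was lost with quantile normalization (0.33) and with no filter on low values (adjusted p = 0.106). *Cyp2b10* was not called (1.61, SE 0.70, adjusted p = 0.0742), with adipose values of 52.6, 177, 17.8 and 4.60 spread over those of liver (61.3, 138, 118 and 83.5).

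Hormones and growth factors of hepatic origin were higher in liver in 16 of 20 cases (median 3.05). *Igf1*, the mediator of growth hormone, stood at 413, 380, 554 and 458 in liver and 79.6, 41.1, 98.3 and 109 in adipose tissue (2.52, SE 0.19, adjusted p = 4.2e-05), and *Igfals*, which keeps it in circulation, at 39.8 to 99.7 against 0.148 to 2.39 (5.20). *Igfbp1* differed by 7.41, *Igfbp2* by 7.01 and *Hamp*, the iron hormone hepcidin, by 10.16. The receptor *Igf1r* (-2.97) and the fetal growth factor *Igf2* (-3.52) were higher in adipose tissue. *Igf1r* stood at 47.5, 74.4, 36 and 45.8 there and at 5.66, 8.73, 3.28 and 5.04 in liver. The insulin receptor *Insr* (0.25) and the growth hormone receptor *Ghr* (-0.27) were not called.

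**Figure D2:**
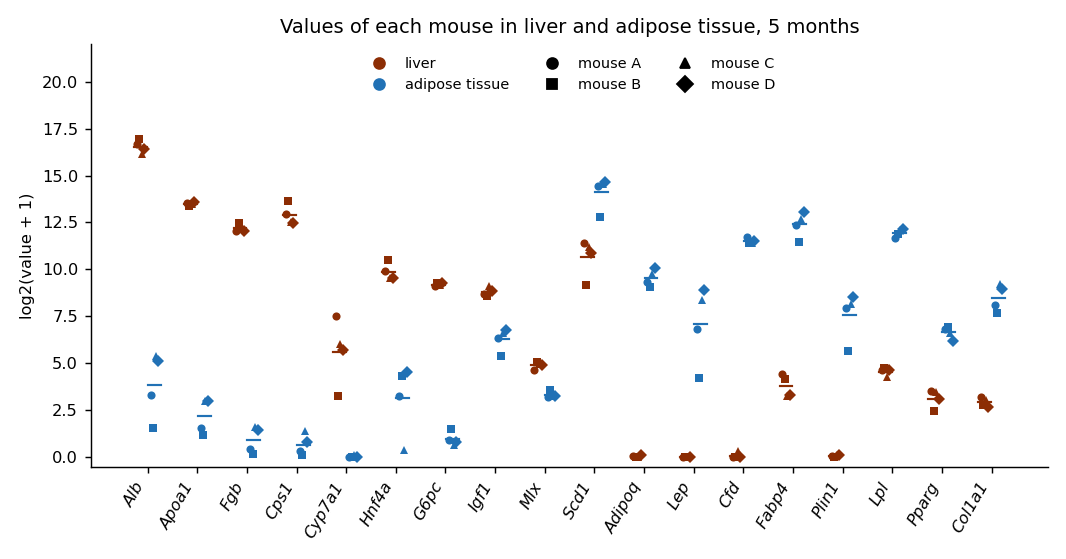
Normalised values of 18 genes as log2(value + 1) in liver (brown) and adipose tissue (blue), with a symbol for each of 4 mice and a line at the mean. The tissues do not overlap in any of the 18. *Lep*, *Plin1* and *Scd1* are lowest in the adipose tissue of mouse B, *Hnf4a* is lowest in that of mouse C, and liver *Cyp7a1* runs from 8.51 to 186.

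The adipocyte side was led by secreted proteins. *Cfd* (adipsin, complement factor D, which adipocytes release into blood) stood at 3375, 2729, 2715 and 2953 in adipose tissue and at 0, 0, 0.285 and 0 in liver, a difference of -11.43 (SE 0.13, adjusted p = 7.71e-08). *Adipoq* (adiponectin) stood at 643, 532, 859 and 1075, against 2 reads in all 4 livers. The difference was -9.50 (SE 0.17), a ratio of 21650 with a 95% counting interval of 5993 to 178800. *Lep* was listed at 0 in every liver and at 112, 17.6, 336 and 480 in adipose tissue, at least 1095-fold higher against a floor of 3 reads per library (-7.08, SE 0.74, adjusted p = 0.000173). *Retn* (resistin) was also at 0 in every liver and at 306, 171, 346 and 359 in adipose tissue, at least 1370-fold higher (-8.15). Such bounds and intervals cover counting error only. Mouse B had the lowest adipose value of *Adipoq*, *Lep* and *Retn*. Of 11 adipokine genes tested, 6 were higher in adipose tissue and 3 in liver. The 3 were *Rbp4*, the retinol carrier (5.40), *Agt*, the angiotensin precursor (3.07), and *Rarres2*, chemerin (1.70, or 0.53 and not called with equal sums). *Nampt* (-0.01) and *Angptl4* (-0.61) were not called.

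Members of the lipid droplet and lipolysis list went both ways. Of 24 genes tested, 16 were higher in adipose tissue and 6 in liver (median -3.60). *Plin1* stood at 242, 50.02, 281 and 374 against 3 reads in all livers, *Fabp4*, which carries fatty acids in the adipocyte, at 5359, 2854, 6514 and 8564 against 8.56 to 20.6 (-8.61), and *Lpl*, which frees fatty acids from circulating lipoproteins, at 3251, 3729, 4470 and 4610 against 18.2 to 25.5 (-7.39, SE 0.17). *Plin1* differed by -7.50 (SE 0.44, adjusted p = 1.64e-05). The droplet protein *Cidec*, by contrast with these, was well expressed in liver too, at 188, 219, 143 and 151 against 2872, 2433, 2562 and 2736 (-3.93). The lipase genes *Pnpla2* (-2.65) and *Lipe* (-4.41) were higher in adipose tissue. Several enzymes of glycerolipid synthesis were higher in liver, namely *Dgat2* (3.32), *Acsl1* (3.28), *Gpd1* (2.93), *Agpat2* (2.79) and *Gpam* (1.16), as was *G0s2*, an inhibitor of lipolysis (1.84). *Gpam* was not past the threshold in 5 of the alternatives, and *G0s2* overlapped between the tissues and was lost without the pairing (adjusted p of the paired fit = 0.011). The call of *G0s2* was also lost with equal sums (0.69), with equal sums apart from the 20 most abundant genes (0.90) and with quantile normalization (1.12). *Dgat2* stood at 425, 389, 479 and 444 in liver and 38.5, 12.1, 71.8 and 92.4 in adipose tissue. *Dgat1* (-1.004), *Lpin1* (-3.27) and *Abhd5* (-1.25) were higher in adipose tissue.

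Other genes with the largest adipose differences included *Aoc3*, a surface amine oxidase of adipocytes (-8.50), *Acta1*, skeletal muscle actin (-8.11), *Sncg*, gamma-synuclein (-7.87), *Thbs1*, thrombospondin (-7.56), *Apol6* (-7.48) and *Col6a5* (-7.41). *Aoc3* stood at 519, 95.5, 740 and 765 and *Sncg* at 252, 81.7, 454 and 625, both lowest in mouse B. Without mouse B, 12 of 12 adipocyte markers were again called. In these bulk samples, fewer adipocytes and less RNA of these genes per adipocyte cannot be told apart.

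Transcription factors of the adipocyte were split, with 7 of 14 higher in adipose tissue and 3 in liver (median -0.72). *Pparg*, the master regulator of fat cells, stood at 115, 123, 97.4 and 73.4 in adipose tissue and 10.4, 4.44, 9.98 and 7.68 in liver (-3.53, SE 0.25, adjusted p = 3.21e-05). *Ebf1*, which acts with it, differed further (-5.95), at 87.9, 43.5, 137 and 88.7 against 0.143 to 0.827. *Klf15* (2.57), *Cebpb* (1.27) and the coactivator *Ppargc1b* (1.52) were higher in liver, the last 2 not when sums were made equal. *Cebpa*, which serves both cell types, was not called (0.89), and *Tbx15* was below the filter, at 0.0957, 1.03, 0.597 and 1.601 in adipose tissue. Of 10 brown and beige fat genes 5 passed the filter, with 2 higher in liver (*Elovl3* and *Cpt1b*), 2 in adipose tissue and 1 not called. Their median of 0.47 turned to -0.61 with equal sums. *Ucp1* and *Cidea* were below the filter. *Ucp1* was at 0 in every liver and at 0.0332 to 0.319 in adipose tissue, and *Cidea* at 0.498 to 1.25 in adipose tissue.

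Positional genes separated the tissues on the adipose side. Of the 39 *Hox* genes in the table, 22 passed the filter, and 21 of these were higher in adipose tissue, 0 in liver (median -2.94). Passing the filter required expression in at least 4 libraries, mostly those of adipose tissue, so the count among those that passed is a description. All 4 livers were at 0 for 24 of the 39. *Hoxc8* stood at 36.1, 21.6, 64.2 and 48.6 in adipose tissue and at 0 in every liver, and *Hoxd8* at 22.3, 25.2, 22.3 and 25.3 against 0.

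De novo lipogenesis, the pathway in which ChREBP and Mlx are best known, showed no common direction. Of 20 genes, 8 were higher in liver, 7 in adipose tissue and 5 were not called, and the median of 0.10 turned to -1.07 with equal sums. *Acly*, which makes cytosolic acetyl-CoA, stood at 112, 96.2, 77.4 and 92.1 in liver and 102, 106, 105 and 102 in adipose tissue (-0.14, SE 0.12, adjusted p = 0.291). *Fasn*, fatty acid synthase, stood at 100, 78.0, 59.2 and 82.8 against 128, 101, 136 and 225 without overlap and did not reach the fold threshold (-0.83, adjusted p = 0.0103). *Acaca*, which makes malonyl-CoA (-0.84, adjusted p = 0.0029), and *Me1* (0.35) were not called. With equal sums *Acly* (-1.31), *Fasn* (-2.0) and *Acaca* (-2.01) were called higher in adipose tissue, as *Fasn* (-1.51) and *Acaca* (-1.42) were with quantile normalization. The desaturases that make monounsaturated fatty acids were higher in adipose tissue. *Scd1* stood at 22520, 6991, 23770 and 26040 there and at 2670, 586, 2321 and 1909 in liver (-3.44, SE 0.33, adjusted p = 0.000128), lowest in mouse B in both tissues. Enzymes of polyunsaturated and very long chains were higher in liver, namely *Fads2* (3.94), *Fads1* (2.47), *Elovl5* (3.56) and *Elovl3* (7.81). *Elovl6*, which extends palmitate, was higher in liver by 1.10. Its call was lost with equal sums, without mouse A (0.98) and without mouse C (0.95). *Acacb* (-1.16, and -0.97 without a call without mouse A), *Srebf1* (-1.15), *Thrsp* (-2.32), *Pnpla3* (-3.01) and *Mid1ip1* (-1.38) were higher in adipose tissue. *Pnpla3*, a lipid droplet acyltransferase and lipase, stood at 6.06, 1.85, 17.8 and 19.4 there against 0.0636 to 0.291.

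Fat burning and ketone production lay on the liver side, with 23 of 25 genes higher in liver and 2 in adipose tissue (median 3.46, or 2.29 and 22 genes with equal sums). *Cpt1a*, the gate of mitochondrial fatty acid entry, stood at 1266, 1355, 1157 and 1116 against 90.5, 88.5, 118 and 101 (3.61). The 2 genes on the adipose side were *Oxct1*, which lets tissues use ketone bodies (-4.07, at 111, 67.8, 157 and 173 against 4.80 to 8.59), and *Pdk4*, which holds back pyruvate oxidation (-1.66). The muscle form *Cpt1b* was higher in liver, at 46.0, 75.4, 53.9 and 63.7 against 2.42 to 4.32 (3.86).

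Cholesterol synthesis and uptake genes were higher in liver in 14 of 21 cases (median 1.18) and in 6 of 21 with equal sums, where 1 was higher in adipose tissue. *Insig2*, which holds back the activation of the pathway, differed by 4.31, and *Sqle* was not called (0.47, or -0.61 with equal sums).

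**Figure D3:**
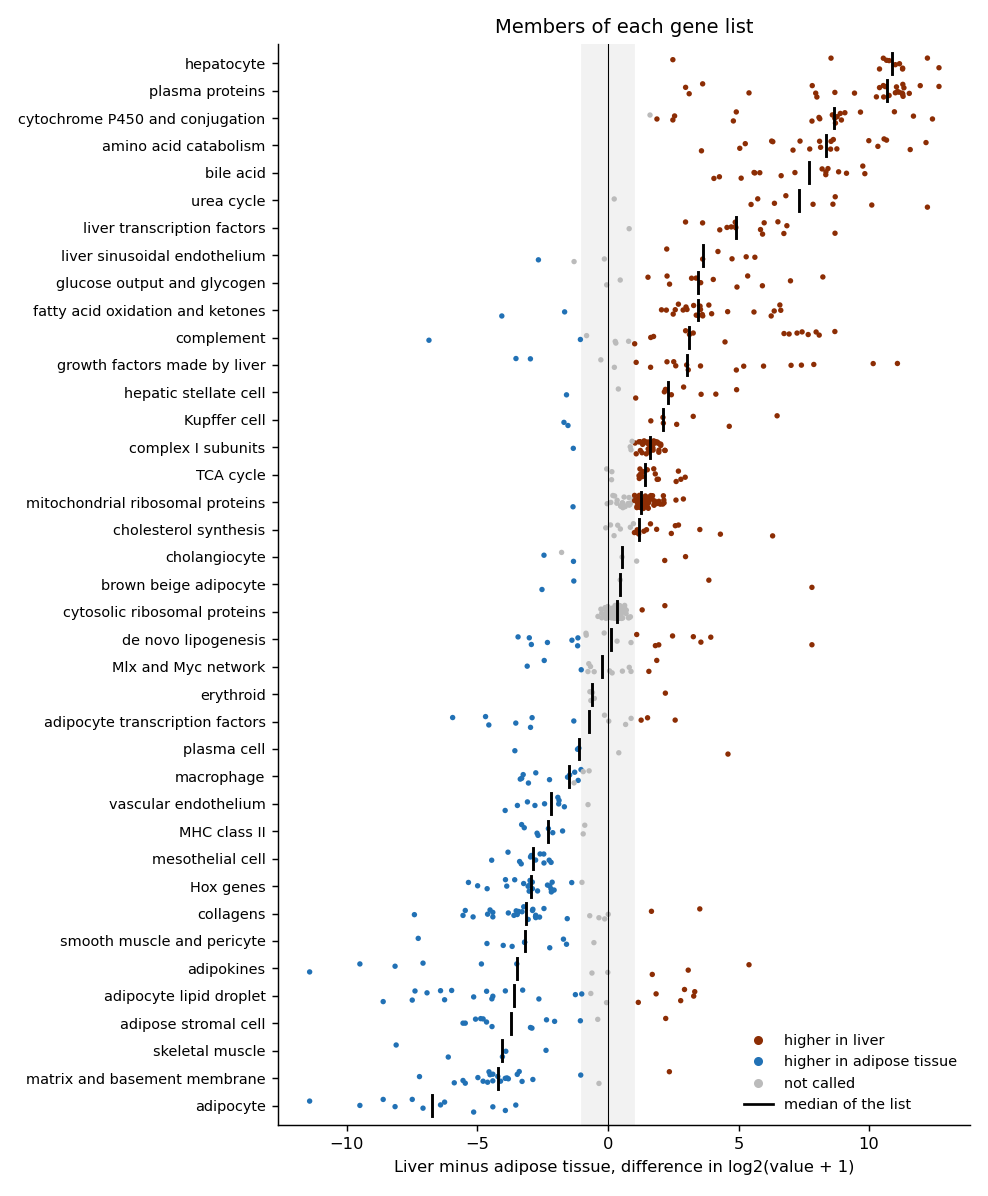
Difference between liver and adipose tissue in log2(value + 1) for each tested member of the gene lists with at least 5 tested members, with the median of each list as a black line and differences under 1 shaded. Medians run from 10.9 for hepatocyte markers to -6.75 for adipocyte markers, and lists such as cytosolic ribosomal proteins and de novo lipogenesis lie near 0.

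Pairs of related genes that share a reaction formed a list of 19, and 18 have both members in the table. In 12 of them the liver form was called higher in liver and the other form higher in adipose tissue. Levels of different genes were compared here per kb of annotated exon (the union of all GENCODE exons of a gene, mean ± SD of 4 mice). In glucose uptake, *Slc2a2* (3.55) was higher in liver and the insulin-responsive *Slc2a4* (-4.45) in adipose tissue. Glycolysis followed, with *Pklr* (1.87) against *Pkm* (-2.88). *Pklr* and *Pkm* were at like levels per kb in liver (5.37 ± 0.845 and 4.84 ± 1.11), while in adipose tissue *Pkm* was at 36.8 ± 7.6 and *Pklr* at 1.83 ± 1.49. Adipose *Pklr* stood at 4.499, 7.79, 0.0332 and 11.4, again lowest in mouse C, and its call was lost without mouse A, with equal sums and with either count model.

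Glycogen and fat genes were divided in the same way. *Gys2* (5.35) and *Pygl* (2.36) faced *Gys1* (-3.19) and *Pygb* (-3.04). *Fabp1* (10.52) faced *Fabp4* (-8.61), at 5139 ± 2392 and 3.07 ± 1.35 per kb in liver and 1.84 ± 2.003 and 1297 ± 531 in adipose tissue. *Lipc* (6.25) faced *Lpl*, *Cideb* (5.96) faced *Cidec*, *Aqp9* (6.55) faced the glycerol channel *Aqp7* (-6.93) and *Slc27a5* faced *Slc27a1* (-2.94). The other 6 pairs did not divide. *Pfkl* (0.15), *Acaca* and *Mat2a* (-0.29) were not called, although their partners *Pfkp* (-3.59), *Acacb* and *Mat1a* were. Both *Cpt1* genes were higher in liver, and so were both *Hsd17b13* (9.61) and *Hsd17b11* (2.99), while *Scd1* and *Scd2* (-2.93) were both higher in adipose tissue.

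**Figure D4:**
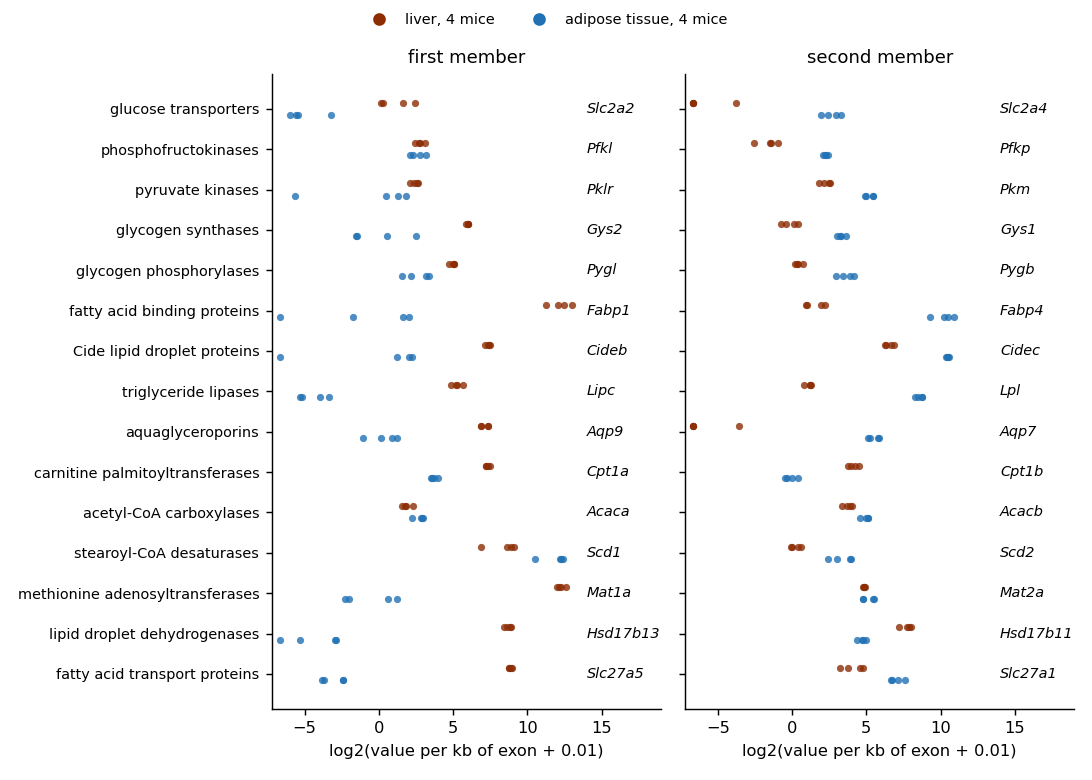
Normalised value per kb of annotated exon, as log2(value per kb + 0.01), for the first (left) and second (right) member of 15 gene pairs in liver (brown) and adipose tissue (blue), with a point for each of 4 mice. In pairs such as *Fabp1* and *Fabp4* or *Lipc* and *Lpl* the colours change sides between the panels, and in the pairs of *Cpt1* and *Scd* genes they do not.

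Complement genes of a single cascade did not all lie on the same side. Of 21 genes, 15 were higher in liver, 2 in adipose tissue and 4 were not called (median 3.12). The terminal components *C8a* (8.69), *C8b* (7.97), *C8g* (7.67) and *C9* (8.09) and the lectins *Mbl1* (7.44) and *Mbl2* (6.94) were liver genes. *C7*, which joins the same membrane attack complex, was not, at 203, 275, 248 and 201 in adipose tissue and 1.02, 1.53, 0.713 and 0.800 in liver (-6.86, SE 0.13, adjusted p = 1.49e-07). The regulator *Cd55* was higher in adipose tissue as well (-1.06), a call that was lost without mouse A (-0.97) and without mouse C (-0.91), and *Cfd*, the protease that starts the alternative pathway, is described above. *C4b* was called at 1.02, close to the threshold, and was lost or turned in 8 alternatives, at -0.16 with equal sums.

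Of 14 tested genes of the Mlx and Myc network, 2 were higher in liver, 3 in adipose tissue and 9 were not called (median -0.23), against 23.3% and 25.8% of all genes. With equal sums 0 were called higher in liver and 8 in adipose tissue (median -1.34). *Mlx* itself stood at 24.2, 32.4, 30.4 and 28.9 in liver and 8.2, 10.97, 8.53 and 8.79 in adipose tissue (1.57, SE 0.11, adjusted p = 3.67e-05), and was under the threshold with equal sums. These values count reads on all exons, deleted or not, so they do not measure the deletion. The study measured it by qRT-PCR in animals of the same numbers. Residual *Mlx* expression was a small part of the wild-type level in both tissues, and lower in liver than in adipose tissue in each mouse. *Mlxip* was higher in adipose tissue, at 86.5, 147, 84.6 and 58.5 against 13.6, 27.4, 10.9 and 14.5 (-2.44, SE 0.16). *Mlxipl* stood at 86.3, 119, 83.2 and 102 in liver and 64.9, 49.1, 54.5 and 42.2 in adipose tissue, without overlap but under the fold threshold (0.88, SE 0.18, adjusted p = 0.0035), and at -0.28 with equal sums. The glucose-responsive *Txnip*, a classic target of these factors, was higher in adipose tissue, at 1758, 1991, 1612 and 1414 against 180, 308, 146 and 183 (-3.09). *Myc* (-0.67), *Max* (-0.77) and *Mnt* (-0.73) were not called.

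Mitochondrial genes leaned to liver by a small step that depends on the scaling. Genes with *Nduf* symbols, which form the complex I list, were higher in liver in 33 of 37 cases (median 1.595) but in 2 of 37 with equal sums. Mitochondrial ribosomal proteins were higher there in 53 of 76 (1.26) but in 5, and tricarboxylic acid cycle genes in 15 of 18 (1.42) but in 4. *Ndufa4*, listed by its symbol and not as an established complex I subunit, stood at 248, 220, 296 and 288 in liver. In adipose tissue it stood at 48.3, 34.9, 64.7 and 96.1 (2.18). The related *Ndufa4l2*, likewise listed by symbol, was higher in adipose tissue (-1.33), and so was *Mrps6* among the ribosomal proteins (-1.34). *Cs*, citrate synthase, was not called (0.14, with 139, 144, 150 and 199 against 153, 120, 155 and 142), nor was *Idh3a* (0.15), and both were under -1 with equal sums. Cytosolic ribosomal proteins were called in 2 of 80 cases, with a median of 0.34 that turned to -0.83 with equal sums.

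Extracellular matrix and the cells that make it set adipose tissue apart. Of 23 matrix and basement membrane genes, 21 were higher in adipose tissue and 1 in liver (median -4.22), and of 30 collagen genes 24 and 2. *Col1a1*, the main fibrillar collagen, stood at 272, 203, 597 and 501 in adipose tissue and 8.401, 5.82, 7.27 and 5.52 in liver (-5.55, SE 0.28). The basement membrane *Col4a1* stood at 1231, 978, 2059 and 1174 against 59.1, 60.9, 59.4 and 62.8 (-4.41), and *Col6a1* (-4.41) and *Col15a1* (-3.82) followed. *Col18a1* was the largest exception, at 1247, 1055, 1273 and 1304 in liver and 86.1, 68.1, 158 and 132 in adipose tissue (3.52). *Col13a1* (1.67, and 0.78 without a call with equal sums) was also higher in liver. So was fibronectin *Fn1* (2.35, and 0.89 without a call with quantile normalization), which hepatocytes secrete into plasma.

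Cell type markers named the other cells of each tissue. Higher in adipose tissue were 12 of 14 stromal markers (median -3.71), 9 of 10 of vascular endothelium (-2.17), 9 of 10 of smooth muscle and pericytes (-3.19), 12 of 12 of mesothelium, the covering of the omentum (-2.86), 11 of 14 of macrophages (-1.51) and 7 of 9 class II antigen presentation genes (-2.28). *Pdgfra*, which marks stromal progenitors, stood at 72.3, 83.7, 60.1 and 60.2 against 11.4 to 21.5 (-2.04). *Dpp4*, which also marks such progenitors, was instead higher in liver (2.21). *Pecam1*, of endothelium, stood at 482, 462, 486 and 195 in adipose tissue, lowest in mouse D, against 22.4 to 52.3 (-3.47). Higher in liver were 7 of 9 markers of Kupffer cells, its resident macrophages (2.12), 6 of 9 of sinusoidal endothelium (3.63) and 8 of 10 of stellate cells (2.32). *Clec4f* stood at 81.8, 119, 65.3 and 108 in liver and 0 to 0.0995 in adipose tissue (6.48), and *Clec4g* at 44.3 to 71.5 against 0.0319 to 0.233 (5.63). *Cd163* (-1.53) and *Folr2* (-1.68) from the Kupffer list, *Ushbp1* (-2.66) from the sinusoidal list and *Rgs5* (-1.59) from the stellate list were higher in adipose tissue, which holds macrophages, endothelium and pericytes of its own. Most markers of B, T and NK cells and neutrophils were below the filter. Of the plasma cell list, *Jchain*, which joins secreted antibodies, was higher in adipose tissue (-3.57, at 81.2, 7.46, 37.9 and 24.3) and *Sdc1*, also a hepatocyte surface protein, in liver (4.60).

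Several sets of genes were uneven among the adipose libraries. Epithelial genes, chosen after their values were seen, were lowest in that of mouse C, where *Krt8* still stood at 7.73 and *Krt18* at 2.82. *Epcam* stood at 13.3, 27.9, 0.0995 and 36.8 there and at 2.14 to 2.69 in liver (-1.78, adjusted p = 0.0811, not called). Summed over 10 epithelial genes, adipose values were 133, 294, 11.9 and 303 and liver values, which were above them all, 634 to 837. Adipose values over 9 genes of motile cilia were 66.7, 175, 3.29 and 186 against 1.09 to 1.72 in liver. The cilium regulator *Foxj1* stood at 16.05, 37.3, 0 and 56.8. The adipose libraries at 20 months varied likewise, from 2.41 to 115 for the cilium sum. Skeletal muscle genes were uneven in another order, with *Myh4* at 2.01, 140, 227 and 240 and *Ckm* at 0.989, 49.2, 64.7 and 78.1, while *Acta1* was also high in mouse A (323, 104, 428 and 403). Summed over 10 muscle markers, adipose values were 331, 436, 912 and 986 against 0.509 to 1.43 in liver. Of these 10, 5 passed the filter and were called, and 9 of 9 were called without mouse A. With liver sums this low, passing the filter rested on the adipose libraries, so these counts are a description. Another set was the trace of hepatocyte genes given with the plasma proteins. Of the pancreatic acinar list 12 of 13 genes and of the epididymis list 9 of 10 were below the filter. The exceptions were *Cela1*, at 3.21 to 11.5 in adipose tissue and 3.42 to 10.4 in liver, and *Sult1e1*, at 10.98, 19.3, 11.98 and 16.1 in adipose tissue against 0.636 to 1.57 (-2.78).

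**Figure D5:**
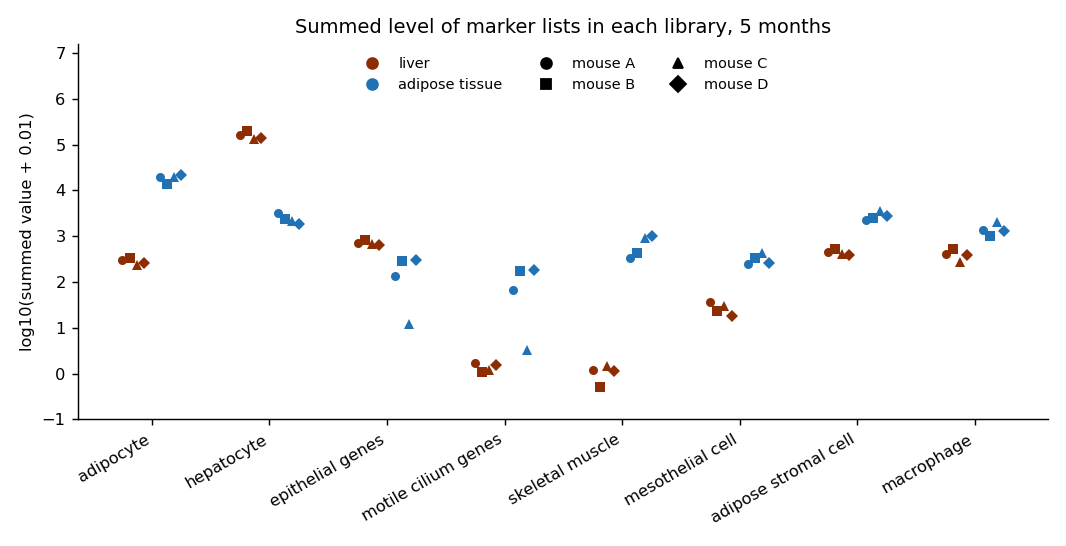
Summed normalised value of 8 marker lists in each of the 8 libraries, as log10(sum + 0.01), for liver (brown) and adipose tissue (blue) with a symbol for each mouse. The epithelial and motile cilium sums of adipose tissue are lowest in mouse C, at 11.9 and 3.29, and the adipocyte sum is 13710 to 21700 in adipose tissue and 237 to 337 in liver.

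Libraries of 5 livers and 5 adipose samples at 20 months, whose numbers in the labels do not pair the tissues, gave the same measure outside this comparison. There, 2916 of 13759 genes (21.2%) were called higher in liver and 3239 (23.5%) higher in adipose tissue. Of the 3142 genes called for liver at 5 months and tested at 20 months, 2494 (79.4%) were called for liver again and 0 for adipose tissue, and of 3298 called for adipose tissue, 2675 (81.1%) were called again and 7 for liver. *Alb* differed by 11.41 there, *Adipoq* by -9.98, *Lep* by -9.42 and *Plin1* by -9.11. All 28 plasma protein genes and all 12 adipocyte markers kept their direction and call. The titles of these samples give 20 months, whereas their codes, read as the 5-month codes are, give a slightly lower age. The age of the titles is used here.

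The size of the tissue difference changed with age in 1721 of 14918 genes (11.5%) by the interaction test at an adjusted p under 0.05, towards liver in 980 (6.57%) and towards adipose tissue in 741 (4.97%). These counts rested on single libraries. With 1 mouse or sample left out they ran from 414 to 1405 and from 264 to 1060. They were 414 and 264 without the 5-month mouse B, 482 and 306 without mouse A and 625 and 477 without the 20-month liver 18, and the second was 480 without the 20-month adipose sample 39. *Cyp2e1* showed the largest change in size among the named genes. Its adipose value was 2356 ± 610 at 5 months (n = 4) and 274 ± 181 at 20 months (n = 5) while liver stood at 13440 ± 3892 and 10303 ± 2328, so that the difference went from 2.49 to 5.51 (change 3.02, SE 0.63, adjusted p = 0.00813). Of the 10 urea cycle genes 4 went the other way, with *Ass1* in liver at 5734 ± 1209 and 2096 ± 607 (change -1.96, adjusted p = 0.0022) and *Arg1* (-1.85, adjusted p = 0.00401) and *Cps1* (-2.47, adjusted p = 0.0342) alongside, followed by the mitochondrial aspartate carrier *Slc25a13* (-1.30, adjusted p = 0.0312). *Otc* (0.15, adjusted p = 0.73) and the other 5 did not pass the test. *Pparg* (1.67) and *Lpl* (1.84) became less far apart, as liver *Pparg* rose from 8.12 ± 2.73 to 17.49 ± 2.62 and adipose *Pparg* fell from 102 ± 21.9 to 66.3 ± 11.7. *Mlxipl* moved from 0.88 to 2.43 (change 1.55, SE 0.25, adjusted p = 0.0019), with liver at 97.8 ± 16.6 and 169 ± 25.4 and adipose tissue at 52.7 ± 9.56 and 31.0 ± 7.62. Age and the cohort in which the animals were collected cannot be told apart.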

How the data were processed

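Poly-A RNA of liver, omental adipose tissue and skeletal muscle of *Mlx*KO mice was sequenced from strand-marking libraries. The authors aligned and counted reads in CLC Genomics Workbench, and their submitted notes name the builds GRCm38.p6 and mm10, while mapping settings, strand use in counting and annotation version are not given in the sources used here. The deposited table is headed as CPM, but its values are a scaled signal, CPM divided by a factor for each library. TMM factors were recomputed over all 27 libraries of the series. The authors' factors were within 0.599% of these for the 8 libraries and within 2.01% for all 27. All values came out as whole reads (tolerance 0.01). The design had assumed plain CPM, and the same log-scale test was kept. The labels and the study's methods differ on the adipose extraction kit, as described above.

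From these values, log2(value + 1) was fitted with limma 3.58.1 (R 4.3.3) with a variance trend and the mouse as a block, over genes that reached a value of 1 in 4 or more of the 8 libraries, with Benjamini-Hochberg adjustment over all of them. Liver and adipose samples carry the same animal numbers in the labels, which is where the pairing comes from. Deviations from the tissue means correlated within animals at 0.0602, 0.248, -0.0179 and 0.208. Between different animals they correlated at -0.335 to 0.293, so these values do not by themselves show the pairing. The 20-month fit had no block, and the change with age was an interaction contrast over both ages. Alternatives were a quasi-likelihood test on the whole reads (edgeR 4.0.16), DESeq2 (1.42.0), other scalings, filters and pseudocounts, and leaving out each mouse. The scripts were tested on simulated data. Counting intervals are exact and, as the floors of 3 reads do, cover counting error only. Replicates differed from each other by more than sampling noise.

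The comparison and the gene lists were chosen with earlier results of these data known, so list counts are descriptions, and no list was tested as a set. Named genes were the 12 largest called differences in each direction without overlap (mean of at least 1 in the higher tissue), marked members of each list, all members of the gene pairs, members against the majority of their list and the gene with the smallest p. Other list members, the epithelial and cilium genes, the *Hox* genes and the *Mup* sum were added after their values were seen. Exon lengths came from GENCODE and promoters from RefSeq. Some members of these lists are counted but not reported here by name.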

Additional observations from a re-analysis of the deposited data

Results flagged for a closer look

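Single libraries stood apart from the other 3 of their tissue in 12 of the named genes, by Dixon's test of the gap to the nearest library over the range of the 4. Chance gives such a gap in about 1 in 20 groups, which is 14.3 of the 287 groups of 4 tested, so these 12 are no more than chance gives. In the adipose library of mouse B, *Apol6* (69.57 against 231.2 to 263.3) and *Pck1* (681.4 against 1493 to 1592) were lowest. The liver of the same mouse held the highest *Cyp4a14* (25020 against 18840 to 19890) and *Mug1* (7658 against 5774 to 5966). In mouse A, liver *Cyp2e1* (7616 against 15120 to 15770) and *Dpp4* (116.1 against 139.4 to 142.6) were lowest and liver *Acta2* (2.737 against 0.7129 to 1.018) was highest. Its adipose tissue held the highest *Cyp2f2* (91.44 against 8.627 to 21.69) and *Ppargc1b* (10.69 against 5.283 to 5.939). Mouse C had the highest adipose *Fn1* (668.3 against 229 to 302.4) and the lowest liver *Gys2* (156.1 against 167.5 to 169.8). Adipose *Pecam1* was lowest in mouse D (194.6 against 461.7 to 485.7).

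For 26 named genes the difference between liver and adipose tissue at 20 months was not that at 5 months by limma's interaction test. The same test passed 1721 of all 14918 genes (11.5%), so the 26 are a description and not a feature of the named genes. Leaving out 1 mouse or sample moved the counts over all genes widely, and these 26 were not followed singly through those fits. Values are the 20-month minus the 5-month difference in log2(value + 1), so a positive value is a shift towards liver. Among liver-enriched genes of the urea cycle and amino acid breakdown the shift was negative, in *Cps1* (-2.47, adjusted p = 0.0342), *Ass1* (-1.959, adjusted p = 0.0022), *Arg1* (-1.85, adjusted p = 0.00401) and *Sds* (-1.354, adjusted p = 0.0286). It was positive for the cytochromes *Cyp2e1* (3.02, adjusted p = 0.00813) and *Cyp2f2* (2.954, adjusted p = 0.0129). Adipose-enriched genes shifted towards liver, namely *Cfd* (2.838, adjusted p = 0.0036), *Lpl* (1.843, adjusted p = 0.0059), *Pparg* (1.673, adjusted p = 0.00292), *Hk2* (1.709, adjusted p = 0.015) and *C7* (2.275, adjusted p = 0.0118), as did the matrix and growth genes *Col1a1* (1.614, adjusted p = 0.0298), *Col6a5* (2.059, adjusted p = 0.0107) and *Igf2* (1.739, adjusted p = 0.0158). In fatty acid and lipid handling the values were *Cpt1a* (-0.9638, adjusted p = 0.011), *Cpt1b* (-2.247, adjusted p = 0.032), *Dgat2* (-2.355, adjusted p = 0.0217) and *Mlxipl* (1.547, adjusted p = 0.0019). The mitochondrial and methionine genes were *Idh3a* (-1.238, adjusted p = 0.00554) and *Mat2a* (0.9173, adjusted p = 0.0126). The rest were *Igfals* (-2.113, adjusted p = 0.018), *Sdc1* (-1.595, adjusted p = 0.0241), *Lrat* (1.3, adjusted p = 0.0165), *Upk3b* (1.724, adjusted p = 0.0207), *Hbb-bs* (1.379, adjusted p = 0.024) and *Hba-a1* (1.552, adjusted p = 0.0165). With the mouse as a block at 5 months, each stayed under 0.05.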

How the results depend on the processing

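The counts of called genes depended most on scaling. With equal sums they were 1417 for liver and 6981 for adipose tissue, and with equal sums apart from the 20 most abundant genes of each tissue 1602 and 6092. A mean value of at least 5 left 2301 adipose calls, since fewer genes were tested. With 1 mouse left out, liver calls ran from 3155 to 3257 and adipose calls from 3536 to 3749. Without the replicate block there were 3188 and 3525, and with the block the change with age was called in 1153 and 914 genes. Left-out samples moved those counts from 414 to 1405 and from 264 to 1060, and the 20-month counts from 2410 to 2970 and from 2565 to 3388. On recovered reads, edgeR called 3108 and 4068 and DESeq2 3208 and 4030. Using mice A and B alone was added after the data were seen.

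Several values turned direction, and the cause was not tested. Of these, *Pck1* (2.26), *Gpam* (1.16) and *C4b* (1.02) were called as reported. With equal sums and then with equal sums apart from the abundant genes, the medians of lipogenesis (-1.07 and -0.85), brown and beige fat (-0.61 and -0.40) and cytosolic ribosomal proteins (-0.83 and -0.61) turned, as did *Sqle* (-0.61 and -0.40), *Reln* (-0.76 and -0.54), *S100a9* (-0.24 and -0.11), *Mlxipl* (-0.28 and -0.061), *Cs* (-1.03 and -0.81), *Idh3a* (-1.01 and -0.79) and *Pfkl* (-1.005 and -0.79). Equal sums alone turned the cholangiocyte median (-0.034), *C4b* (-0.16) and *Gpam* (-0.013). Quantile normalization turned lipogenesis (-0.55), ribosomal proteins (-0.56), *Pck1* (-0.036), *S100a8* (0.42), *C4b* (-0.99), *Cs* (-0.64), *Idh3a* (-0.24) and *Pfkl* (-0.20). Filters turned the cholangiocyte (-0.34) and plasma cell (0.41) medians at a mean of at least 5 and the brown fat median (-0.21) with no filter, and edgeR turned lipogenesis (-0.0095). Fewer mice turned the cholangiocyte median (-0.34 without C, up to 0.65 without D, and -0.054 with A and B alone), brown fat (-0.43), *Cyp2b10* (-0.068), *S100a8* (0.14 without D, down to -0.63 without B, and 0.54 with A and B alone) and *Pfkl* (-0.060 without A and -0.015 without B, up to 0.44 without D). Without pairing, *G0s2* alone of the named genes lost its call. Depth limits genes under about 3 reads a library, where absence was not distinguishable from a low level.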
